A study of Mus musculus with 105 samples.

Results

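The genes described here are 35 genes of the extracellular matrix and of hepatic stellate cells, out of 12966 genes in a table of 105 mouse liver libraries. They were chosen by name, as the rows whose gene symbol is on a fixed list of matrix and stellate cell genes, and all 35 had a row. The list holds collagens, their cross-linking enzymes, matrix proteoglycans and glycoproteins, matrix proteases and their inhibitors, contractile genes, and receptors, a retinoid enzyme and a ligand of stellate cells.

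Every mouse in the series had been treated with diethylnitrosamine (DEN), a carcinogen that hepatocytes activate and that gives rise to liver tumours, so the wild-type animals were DEN-treated as well. In the first sequencing group, IKO livers (labelled Ikk KO, loss of Ikbkb, a kinase of the NF-kB pathway), SKO livers (labelled Shp2 KO, loss of Ptpn11, a phosphatase that relays growth factor signals) and WT livers had 4 libraries in each group. In the second, BKO livers (beta catenin KO, loss of Ctnnb1), MKO livers (cMet KO, loss of the hepatocyte growth factor receptor Met) and a second set of WT livers had 3 libraries in each group. Livers of every genotype were collected after 1, 3 and 5 months and, at 8 months, separately as non-tumour tissue and as tumour, which gave 30 groups. The series title places the gene losses in hepatocytes. The promoter that drove the deletion, the strain and the sex of the mice, and the way tumours were separated from the surrounding liver are not given in the sources used here.

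Hepatic stellate cells lie between hepatocytes and the sinusoidal endothelium, store retinyl esters and wrap the sinusoid. After injury they can become contractile, collagen-secreting cells under the influence of transforming growth factor beta and platelet-derived growth factor, and together with the fibroblasts around portal tracts they lay down most of the scar collagen of a fibrotic liver. Fibrillar collagens form the fibres of the scar, collagen IV forms the basement membrane, lysyl oxidases cross-link collagen and elastin, small proteoglycans such as decorin and biglycan regulate fibre assembly, and the balance of metalloproteinases and tissue inhibitors sets how fast matrix is removed. Hepatocytes themselves secrete a part of the matrix, above all plasma fibronectin.

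Promoter sequence was available from the RefSeq promoter table for 21 of the 35 genes (build GRCm38.p6), and 6 of them are shown as examples of collagen and cytoskeletal genes that the comparisons below return to. Motifs were searched on both strands over the 250 bases before each annotated start: TATAAA, the core promoter element; CCAAT, bound by nuclear factor Y; TGANTCA, the site of AP-1 factors; GGAATG, bound by TEAD factors; and the CArG box, the element of serum response factor. For Col3a1, the chain of collagen III, the 250 bases before the start (chr1:45311288-45311537, plus strand) are given with the reverse complement of GGAATG and then TATAAA in capitals.
Col3a1: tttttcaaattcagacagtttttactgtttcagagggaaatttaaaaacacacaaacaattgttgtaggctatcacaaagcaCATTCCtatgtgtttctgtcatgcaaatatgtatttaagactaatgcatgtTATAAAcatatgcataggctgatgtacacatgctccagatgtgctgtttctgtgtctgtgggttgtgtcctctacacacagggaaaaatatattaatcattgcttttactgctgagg
The other 5 genes are shown as 30 bases around a motif, which is in capitals. They are Acta2, encoding smooth muscle alpha-actin, at chr19:34255438-34255467 and chr19:34255388-34255417 (minus strand, near-CArG elements), Col1a2 at chr6:4505497-4505526 (plus strand, CCAAT), Col4a1 at chr8:11312954-11312983 (minus strand, CCAAT read on the opposite strand), Col4a2 at chr8:11312761-11312790 (plus strand, CCAAT) and Vim, encoding vimentin, at chr2:13574267-13574296 (TATAAA, plus strand).
Acta2, upstream element: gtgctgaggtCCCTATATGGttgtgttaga
Acta2, element nearer the start: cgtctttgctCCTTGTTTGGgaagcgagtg
Col1a2: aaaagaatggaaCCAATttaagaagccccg
Col4a1: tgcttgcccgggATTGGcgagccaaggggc
Col4a2: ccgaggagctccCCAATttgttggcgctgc
Vim: tcctaacagtgtTATAAAagcagcgccctt

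The exact CArG box was found in 0 of the 21 promoters and in 1.47% of all 32851 mouse promoters in the table. A form with 1 mismatch, added after the sequences had been seen, was found in 5 of the 21 (Acta2, Col1a2, Col6a3, Lrat and Timp3), against 7.24% of all promoters. CCAAT was present in 7 (Col1a2, Col4a1, Col4a2, Lrat, Timp1, Timp2 and Vim), against 33.8% of all promoters, and GGAATG in 5 (Acta2, Col3a1, Col6a2, Lrat and Timp1), against 12.6%. TATAAA stood 117 to 112 bases before the start of Col3a1 and 32 to 27 bases before that of Vim, and 12.4% of all promoters held it. TGANTCA was found in the Col6a1 promoter, against 6.75% of all promoters. Col4a1 and Col4a2 lie head to head on chromosome 8, with Col4a1 at 11198423 to 11312826 on the minus strand and Col4a2 at 11312805 to 11449287 on the plus strand in the GENCODE annotation of GRCm38. The 5' ends of the 2 genes overlap, so the window shown for each lies inside the other gene.

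The libraries held 4676444 to 10863046 reads in the first sequencing group and 6650086 to 20231121 in the second. Levels below are normalised reads, that is, reads after division by a factor for library depth, and since the assay counts the 3' end of each transcript they are not divided by gene length. Of the targeted genes, Ptpn11 read at 107.1 (lowest), 158.9 (median) and 375.1 (highest) in SKO non-tumour livers, against 291.8, 365.8 and 432.8 in WT livers. The highest of the SKO values belongs to the library labelled SKO at 3 months, replicate 2, which lies inside the WT range. Ikbkb was lower in IKO non-tumour livers by a log2 difference of -0.32 (limma adjusted p = 0.00258) and Met in MKO livers by -0.31 (limma adjusted p = 0.0118). Ctnnb1 had a median of 118.1 in BKO and 121.8 in WT non-tumour livers; a 3' end outside a deleted part would still be counted, so this level checks nothing about the label. Lox, Thbs1 and Timp1 were near the floor of the assay, with no read in 40, 31 and 26 of the 105 libraries. These are bulk livers, in which more cells of a type and more RNA per cell cannot be told apart.

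Loss of beta catenin was accompanied by more matrix and stellate cell RNA across most of the list. Averaged over the 4 non-tumour stages, 28 of the 35 genes rose in BKO livers against WT livers at a limma adjusted p below 0.05, where 10.6% of all genes rose. The median log2 difference was 0.60 for the 35 genes and 0.01 for all genes. On the deposited log2 scale, which understates changes of genes with few reads, the largest differences were those of the collagen I chains. Col1a1 stood at 2.55-fold and Col1a2 at 2.35-fold on that scale, and these are not ratios of the normalised reads given below.

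All 5 fibrillar collagen genes rose in BKO livers. Col1a2, the second chain of collagen I, had 202 (lowest), 414 (median) and 757 (highest) normalised reads in 12 BKO livers, against 80.5, 136 and 583 in 12 WT livers (log2 difference 1.23 ± 0.19 SE, limma adjusted p = 1.5e-05). Col1a1, the main chain, ran 82.6, 261 and 760.2 in BKO livers, against 33.6, 71.6 and 576 in WT livers (1.35 ± 0.27, limma adjusted p = 0.00046). Col3a1, which co-assembles with collagen I in young scar, ran 13.0, 34.0 and 97.4 in BKO livers, against 3.35, 8.42 and 63.7 in WT livers (0.84 ± 0.13, limma adjusted p = 1.28e-05). In each of these genes the lowest BKO library lay above the lowest WT library and the ranges overlapped. For Col1a1 the highest WT library (576) was a 1-month liver, and the WT libraries inside the BKO range included a 5-month liver. Col5a1 and Col5a2, which nucleate collagen I fibres, rose by log2 differences of 0.43 and 0.46.

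The basement membrane collagens rose as well. Col4a2 had 183, 270.2 and 353 normalised reads (lowest, median, highest) in BKO livers, against 91.9, 126 and 283 in WT livers (0.84 ± 0.12, limma adjusted p = 3.78e-06), and its head-to-head neighbour Col4a1 had 445, 562 and 857 in BKO livers, against 198, 301 and 792 in WT livers. Col4a4, a chain best known from the kidney glomerulus, ran 10.4, 20.8 and 95.4 in BKO livers, against 2.53, 6.03 and 13.8 in WT livers (0.83 ± 0.18, limma adjusted p = 0.000918). Among the collagens that form beaded filaments or decorate fibres, all 3 collagen VI chains rose (Col6a1 0.80, Col6a2 0.89 and Col6a3 0.69 on the log2 scale). Col6a1 ran 92.1, 140.3 and 191 in BKO livers, against 45.5, 65.2 and 153 in WT livers. Col14a1, a fibril-associated collagen expressed by fibroblasts, rose by 0.60 ± 0.10 (limma adjusted p = 6.51e-05), with 571, 739.9 and 1236 in BKO livers, against 414, 512 and 824 in WT livers. Col15a1, a collagen of vessel basement membranes, was the exception among the collagens, at a log2 difference of 0.04 that was not called.

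Both cross-linking enzymes rose in BKO livers. Loxl1, which cross-links elastin and collagen, had 27.2, 57.5 and 116 normalised reads (lowest, median, highest) in BKO livers, against 5.31, 20.0 and 52.5 in WT livers (0.94 ± 0.13, limma adjusted p = 2.71e-06). Lox rose by 0.35, but its median was 1.96 normalised reads in BKO livers and 0 in WT livers.

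Of the proteoglycans and other matrix proteins, 6 of 8 rose. Bgn, encoding the small proteoglycan biglycan (chromosome X, 73483602 to 73495933, plus strand), had the smallest adjusted p of the list. It ran 1098, 1268 and 1732 in BKO livers, against 597, 698 and 1054 in WT livers (0.85 ± 0.09, 1.81-fold, limma adjusted p = 1.49e-08), and the 2 sets of 12 libraries did not overlap. Decorin (Dcn), a sister proteoglycan that binds collagen I and transforming growth factor beta, ran 1878, 2295 and 2849.5 in BKO livers, against 1171, 1428 and 1679 in WT livers, again without overlap (0.72 ± 0.13, limma adjusted p = 0.00011). Mgp, a vitamin K-dependent inhibitor of calcification made by fibroblasts and smooth muscle, rose 2.11-fold on the deposited scale. Sparc (0.63), Eln, the elastin gene (0.49), and Lum, the lumican gene (0.34), also rose. Fn1, the fibronectin gene, was at -0.10 and the low-count gene Thbs1 at 0.27, and neither was called.

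Mmp2, the gelatinase that stellate cells and fibroblasts make, had 58.4, 90.7 and 159 normalised reads (lowest, median, highest) in BKO livers, against 16.8, 28.5 and 95.8 in WT livers (1.11 ± 0.14, limma adjusted p = 1.77e-07). Only the highest WT library, one of the 1-month livers, reached into the BKO range. The inhibitors Timp2 and Timp3 rose by 0.67 and 0.36, so the protease and 2 of its inhibitors were higher together, and Timp1, with a median of 3.53 normalised reads in BKO livers and 1.46 in WT livers, was not called. Among contractile and cytoskeletal genes, Vim (0.63) and Des, the desmin gene (0.41), rose, while Acta2 (0.24) and Tagln, encoding transgelin (0.37), the markers of a contractile myofibroblast, were not called. Lrat, the enzyme that esterifies retinol for storage and a marker of quiescent stellate cells, ran 129, 253 and 385 in BKO livers, against 109, 147 and 216 in WT livers (0.59 ± 0.14, limma adjusted p = 0.00189). The platelet-derived growth factor receptors Pdgfrb (0.37) and Pdgfra (0.40) rose, and the ligand gene Tgfb1 (0.22) was not called.

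**Figure D1:**
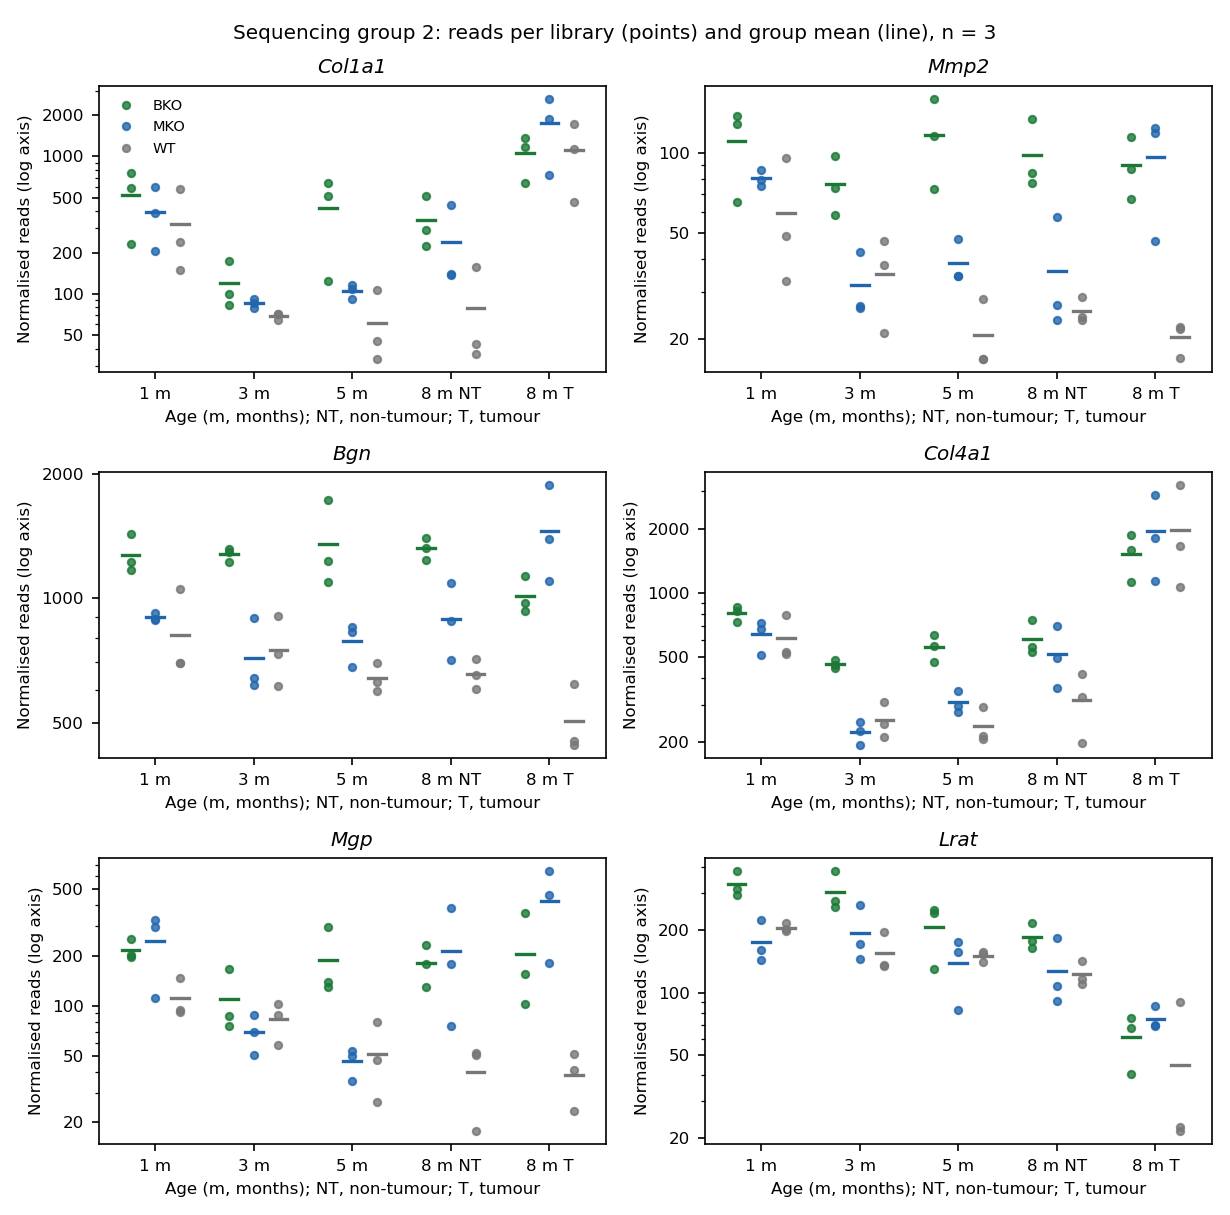
Normalised reads (log axis) of 6 genes in every library of the second sequencing group, by stage, with BKO, MKO and WT livers side by side. Bgn in the 12 BKO non-tumour livers lies between 1098 and 1732, above all 12 WT non-tumour livers, and Lrat in WT tumours (22.5, 90.1 and 21.5) lies below all 3 WT non-tumour livers of 8 months (142, 117 and 109).

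By stage, the number of genes that rose in BKO livers was 1 at 1 month (1.84% of all genes rose), 1 at 3 months (0.594%), 21 at 5 months (3.51%) and 16 in 8-month non-tumour tissue (3.15%). Bgn was called at all 4 stages, with log2 differences of 0.65, 0.77, 1.02 and 0.99. It was the 1 gene called at 1 and at 3 months, and 0 genes were called at 1 month without BKO replicate 2 or 3 or WT replicate 2 or 3 or after quantile normalization, and at 3 months without BKO replicate 1 or 2 or WT replicate 1 or 3. Without WT replicate 1 the 1-month count was 4. The sign was positive at all 4 stages for 29 of the 35 genes, against 14.9% of all genes. At 5 months Col1a1 had 512, 125 and 637 normalised reads in BKO livers, against 45.5, 33.6 and 107 in WT livers, so that every BKO library was above every WT library (2.20 ± 0.55, limma adjusted p = 0.0122). At 1 month it had 229, 588 and 760.2 in BKO livers, against 576, 149 and 238 in WT livers, which overlap. Loxl1 at 5 months had 92.2, 37.0 and 116 in BKO livers, against 6.74, 5.31 and 21.0 in WT livers, and Mmp2 had 116, 73.3 and 159 in BKO livers, against 16.9, 16.8 and 28.2 in WT livers; neither overlapped. A test of whether the difference varied with stage called 0 of the 35 genes (limma and limma-voom; 4 at an unadjusted p below 0.05; 0.663% of all genes called), so the larger counts at 5 and 8 months are not shown to be larger effects. The 5-month count depended on single libraries: it was 4 without BKO replicate 3, 8 without BKO replicate 1 or WT replicate 1, and 11 without WT replicate 2 or 3. The 8-month non-tumour count was 5 without BKO replicate 1, 7 without WT replicate 3 and 8 with those groups fitted alone.

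Related genes outside the 35 moved in the same comparison. Of 35 other matrix proteins 22 rose (Lamb2, a laminin chain, at 0.71, the proteoglycan gene Prelp at 0.86 and Lama2 at 0.48). Of 22 collagen-processing genes 8 rose and 1 fell, led by Pcolce, the enhancer of procollagen C-proteinase, at 1.12 (limma adjusted p = 9.36e-09), and Adamts2, which trims the N-propeptide, at 0.73. Of 25 genes of the transforming growth factor beta pathway 11 rose, among them the SMAD co-repressor Skil (0.74) and the decoy receptor Bambi (0.51), and 4 of 12 genes of platelet-derived growth factor and integrin signalling did. Of 9 further stellate cell markers 5 rose, among them Hand2 (0.72) and Cygb, cytoglobin (0.76). Their summed level was 2875 to 3721 normalised reads (median 3160) in BKO non-tumour livers, against 1368 to 2730 (median 1695) in WT non-tumour livers, with Gfap not in the table.

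Markers of other cell types moved beside them. Portal fibroblast and mesothelial markers rose for 5 of 8 genes (Clec3b 0.83, Fbln2 0.51, Dpt 0.79), with sums of 182 to 500.2 in BKO and 120 to 266 in WT non-tumour livers, although Clec3b and Pi16 had no read in 57 of 105 libraries each. The lists share genes: Fbln2 is also among the other matrix proteins, as is the stellate cell marker Ecm1. Cholangiocyte markers rose for 5 of 6 (Sox9 1.32, Krt7 0.75, Krt19 0.54; sums 427 to 1078 in BKO and 275 to 468 in WT livers) and macrophage markers for 4 of 10 (sums 3825 to 6732 in BKO and 2449 to 6623 in WT livers). Vascular smooth muscle markers fell for 2 of 7 (Mylk -0.42 and Tpm2 -0.80), with a list median of -0.09. Their sums were 342 to 751 in BKO and 515 to 844 in WT livers, but Mylk made 65.6% of the sum over all libraries. Hepatocyte markers rose for 3 of 7, and none of 9 sinusoidal endothelial markers or 6 mitochondrial transcripts was called. The part of these cell types in the matrix differences was not tested.

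Set directly against MKO non-tumour livers, BKO livers were higher for 16 of the 35 genes (7.18% of all genes). Bgn had 1098, 1268 and 1732 normalised reads (lowest, median, highest) in BKO livers, against 617, 866 and 1091 in MKO livers, without overlap (0.66 ± 0.09, limma adjusted p = 2.2e-06). Mmp2 had 58.4, 90.7 and 159 in BKO livers, against 23.5, 38.5 and 85.9 in MKO livers (0.84 ± 0.14, limma adjusted p = 2.54e-05). Col4a2 (0.62), Timp2 (0.66), Loxl1 (0.62), Lrat (0.62), Dcn (0.54) and Col4a1 (0.59) followed by adjusted p, and Col1a2, Col3a1, Col6a1, Timp3, Sparc, Col6a2, Lox and Vim made up the rest. Col1a1, at 0.69 ± 0.27, was not called (limma adjusted p = 0.082).

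Fewer genes were called in MKO livers. Averaged over the non-tumour stages, Col14a1 was the only gene called (0.37 ± 0.10, limma adjusted p = 0.0401; 1.58% of all genes rose), although 32 of the 35 differences were positive with a median of 0.20. It was not called after quantile normalization or without any 1 of 14 of the 24 libraries. No gene of the list was called at 1, 3 or 5 months by limma or limma-voom, where 1, 0 and 1 had an unadjusted p below 0.05 and 0.185%, 0.0231% and 0.0463% of all genes were called. In 8-month non-tumour tissue 5 rose (3.51% of all genes): Col14a1 had 761, 1624 and 1069 normalised reads in MKO livers, against 414, 624 and 473 in WT livers (1.10 ± 0.21, limma adjusted p = 0.00229). Mgp had 75.4, 386 and 178 in MKO livers, against 50.3, 51.9 and 17.7 in WT livers (1.72 ± 0.43, limma adjusted p = 0.0178). For both genes the 3 MKO libraries were above the 3 WT libraries. Tgfb1 (0.71), Sparc (0.83) and Eln (0.96) were called as well. A dependence of the difference on stage was called for 0 genes by limma and by limma-voom (5 at an unadjusted p below 0.05; 0.339% of all genes). The 8-month count was 0 without MKO replicate 2, 1 without WT replicate 1 or 3 and 0 when the 2 groups were fitted alone; the replicate numbers of these groups deviate together, and with them as a block the fit of the 2 groups alone called 6. Of the related lists, 1 matrix protease, 2 transforming growth factor beta genes and 1 platelet-derived growth factor or integrin gene rose in the average over stages, with 1 macrophage marker higher and 2 hepatocyte markers lower. In 8-month non-tumour tissue, where the 5 genes rose, 5 of 10 macrophage markers rose (Cd68 1.55, C1qb 1.49, Vsig4 1.41; median 1.13), with sums of 6445, 11749 and 7748 normalised reads in MKO livers, against 2712, 5771 and 2631 in WT livers. At that stage 2 of 9 sinusoidal endothelial markers (Flt4 0.78, Kdr 0.55) and 1 of 6 cholangiocyte markers rose, 1 of 7 hepatocyte markers and 1 of 6 mitochondrial transcripts fell, and the 9 stellate cell markers had a median log2 difference of 0.37. The part of these cells in the 5 differences was not tested.

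**Figure D2:**
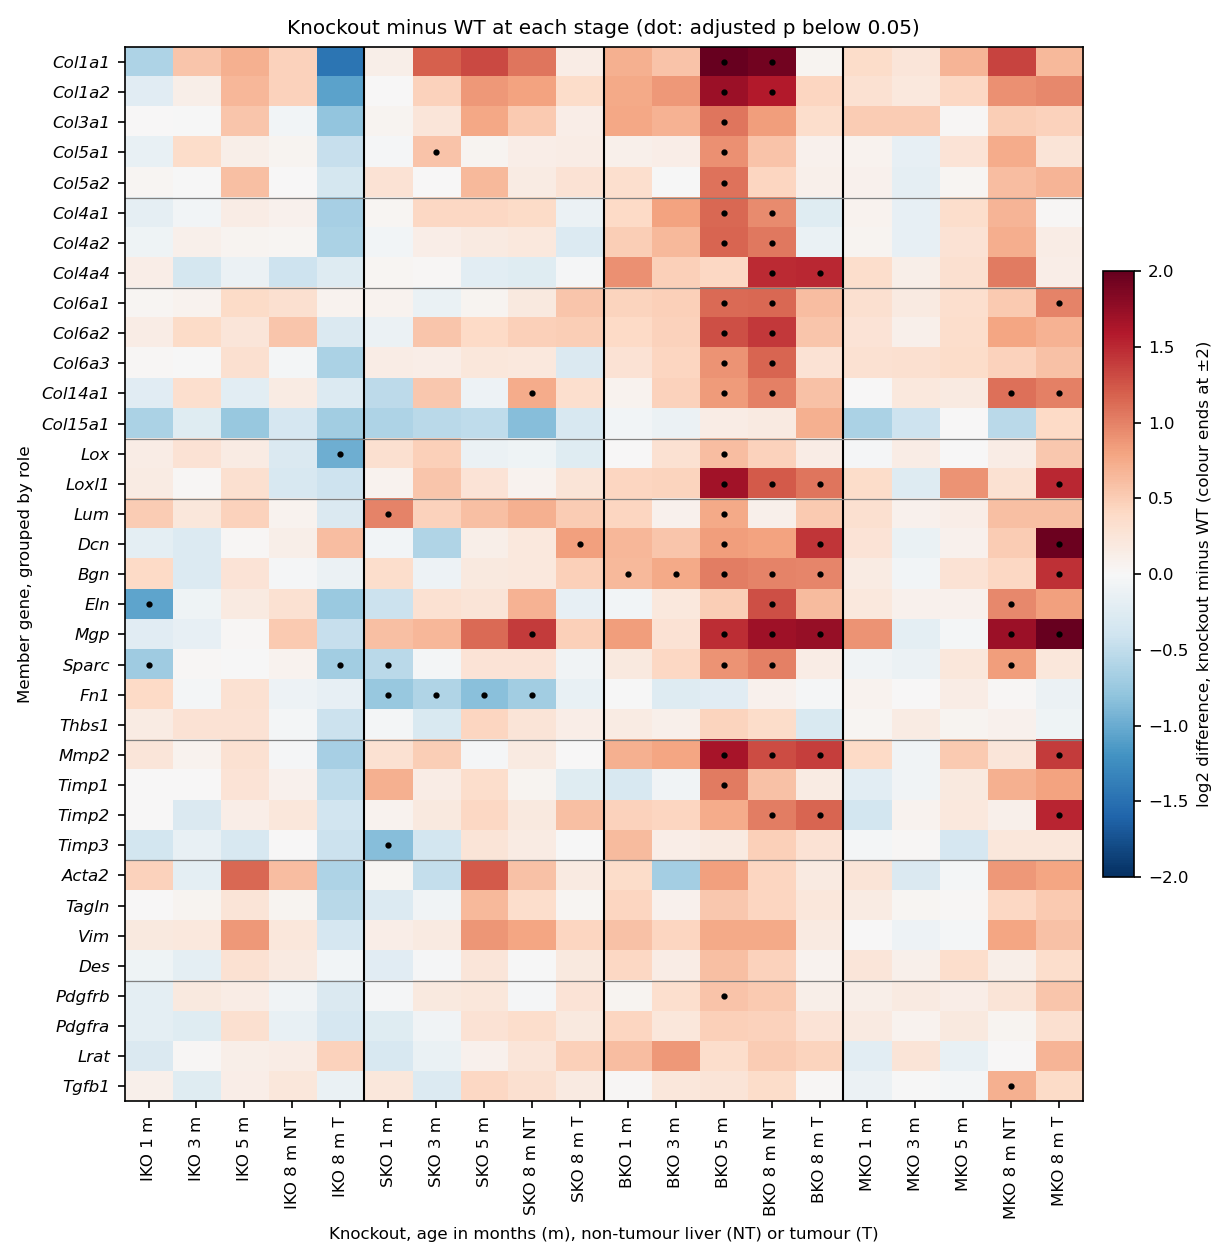
Log2 difference of each knockout from WT of the same sequencing group (colour, ending at 2 in either direction) for the 35 genes grouped by role, at 1, 3 and 5 months and in non-tumour (NT) and tumour (T) tissue at 8 months; a dot marks a limma adjusted p below 0.05. The BKO columns at 5 months and 8 months NT hold 21 and 16 dots, and the Fn1 row is negative with a dot in all 4 SKO non-tumour columns.

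Loss of Shp2 gave a mixed pattern: collagen I and III, matrix Gla protein and lumican rose, and fibronectin fell. Over the non-tumour stages 7 of the 35 genes rose in SKO livers (12.0% of all genes) and 2 fell (10.9% of all genes). The 7 were a larger share of the list than of all genes and the 2 a smaller share. In both directions together the list was called about as often as all genes. The median difference was 0.17, against 0.01 for all genes.

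Fn1 (chromosome 1, 71585520 to 71653200, minus strand) was the most clearly changed gene of the list. It had 1563 (lowest), 1838 (median) and 3576 (highest) normalised reads in 16 SKO livers, against 2705, 3336 and 4082 in 16 WT livers (-0.73 ± 0.08, limma adjusted p = 2.27e-10). The value of 3576 belongs to the library labelled SKO at 3 months, replicate 2, in which Ptpn11 was at the WT level; the next highest SKO library had 2745, which overlaps the lowest WT library. The fall was called at each stage, although at 3 months 0 genes of the list were called without SKO replicate 1 or 4 or with those groups fitted alone, and 1 without SKO replicate 3 or WT replicate 2 or 3. At 1 month Fn1 had 1791, 2052, 1824 and 1720.0 in SKO livers, against 2971, 2705, 3382 and 3628 in WT livers, and in 8-month non-tumour tissue 2012, 1852, 1634 and 1893 in SKO livers, against 3339, 2855, 3054 and 2771 in WT livers. At both stages every SKO library was below every WT library.

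Lum had 3.06, 16.3 and 38.9 normalised reads (lowest, median, highest) in SKO livers, against 0, 4.94 and 13.4 in WT livers (0.69 ± 0.13, limma adjusted p = 3.72e-05). Mgp had 102, 277 and 784 in SKO livers, against 40.2, 111 and 518 in WT livers (0.95 ± 0.22, limma adjusted p = 0.000925). Col1a1 had 102, 351 and 993 in SKO livers, against 36.2, 143 and 544 in WT livers (0.93 ± 0.24, limma adjusted p = 0.00283). The ranges overlap for all 3 genes. Vim (0.49), Col3a1 (0.39), Col1a2 (0.54) and Col4a1 (0.31) rose too, the last at a limma adjusted p of 0.0474 that was above 0.05 without any of 22 of the 32 libraries. Col15a1 fell by 0.63 on the log2 scale (limma adjusted p = 0.0106), with 49.0, 113 and 187 in SKO livers, against 110.4, 186 and 382 in WT livers. Acta2, Tagln, Des, Lrat, both platelet-derived growth factor receptors, Mmp2 and all 3 Timp genes were not called.

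In 2 genes the difference between SKO and WT livers varied with stage (5.68% of all genes). Col14a1 was lower in SKO livers at 1 month, with 1173, 888, 776 and 1024 normalised reads, against 1231, 1660.3, 1337 and 1357 in WT livers (-0.53, limma adjusted p = 0.065). In 8-month non-tumour tissue it had 1933, 1945, 2041 and 973 in SKO livers, against 702, 1159, 977 and 1149 in WT livers (0.74, limma adjusted p = 0.0205). The sign of the difference thus turned between the stages, and the library with 973 stood apart from the other 3 SKO livers (stage by genotype, limma adjusted p = 0.0105). Timp3 had 82.7, 54.5, 75.5 and 83.3 in SKO livers at 1 month, against 206, 208, 103 and 119 in WT livers, without overlap (-0.85, limma adjusted p = 0.00272), and in 8-month non-tumour tissue 300.2, 280.3, 218 and 139 in SKO livers, against 163, 213, 176 and 255 in WT livers, with overlap (0.16, not called; stage by genotype, limma adjusted p = 0.0284). The count of such genes was 1 without SKO replicate 2, WT replicate 1 or WT replicate 2 of the 1-month groups.

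At single stages few genes of the list were called in SKO livers. At 1 month Lum rose (8.74% of all genes rose) and Fn1, Timp3 and Sparc fell (7.34%); Lum had 38.9, 18.6, 15.8 and 38.2 in SKO livers, against 7.92, 4.90, 4.98 and 3.29 in WT livers, without overlap. At 3 months Col5a1 rose (2.99%) beside the fall of Fn1 (2.20%), and at 5 months Fn1 alone was called (3.41% of all genes fell). The 5-month count was 3 without SKO replicate 3 or WT replicate 1, 2 without SKO replicate 4, 2 with the filter on low values or the replicate block, and 4 with the groups fitted alone. In 8-month non-tumour tissue Col14a1 and Mgp rose (2.54%) and Fn1 fell (2.49%). Mgp there had 477, 381, 120.0 and 197 in SKO livers, against 100.1, 109.6, 40.2 and 97.9 in WT livers, without overlap, and the count at this stage was 1 without SKO replicate 1 or 2 or WT replicate 1 or 3.

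Other lists moved with SKO. Of 35 other matrix proteins 10 rose and 2 fell (Col18a1 -0.45, Col12a1 0.56, Tgfbi 0.39), of 22 collagen-processing genes 4 rose and 1 fell, and of 16 other proteases and inhibitors 3 rose and 1 fell, with Serpine2, a protease inhibitor also called protease nexin, at -1.04 and Adamtsl2 at 0.79. Ccn2, a connective tissue growth factor induced by transforming growth factor beta and by YAP, was 1 of 3 risen genes among 25 of that pathway (0.73). Macrophage markers rose for 10 of 10 genes (C1qb 0.84, Vsig4 0.71, Csf1r 0.67), with sums of 2545 to 8138 normalised reads (median 6577) in SKO and 2033 to 7275 (median 3168) in WT non-tumour livers. Hepatocyte markers fell for 5 of 7 (Alb, albumin, -1.09; Serpina1c -0.74; Apoa1 -0.75) and mitochondrial transcripts for 3 of 6. The 9 further stellate cell markers summed to 1224 to 2366 in SKO and 1467 to 2282 in WT livers. Fn1 is made by hepatocytes as well as by stromal cells, and the part of the hepatocyte and macrophage changes in these differences was not tested.

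IKO livers showed little difference in these genes. Over the non-tumour stages 0 of 35 were called by limma and 0 by limma-voom (5 at an unadjusted p below 0.05; 9.04% of all genes called), with a median of 0.08. Without IKO replicate 1 or replicate 4 of the 5-month group the count was 1. At 1 month Sparc, a collagen-binding glycoprotein, and Eln fell (4.75% of all genes fell). Sparc had 1445, 1217, 1734 and 1676 normalised reads in IKO livers, against 2241, 3480.5, 2176 and 2247 in WT livers (-0.71 ± 0.18, limma adjusted p = 0.00834), and Eln had 27.7, 12.4, 28.6 and 43.2 in IKO livers, against 53.5, 127, 76.6 and 71.2 in WT livers (-1.05 ± 0.30, limma adjusted p = 0.0197). Neither gene overlapped between the groups, and both calls were lost without WT replicate 2, which had the highest level of each. At 3, 5 and 8 months 0 genes were called by either tool, and 1, 5 and 0 had an unadjusted p below 0.05 (0.201%, 1.45% and 0.201% of all genes called). Without IKO replicate 1 the 5-month count was 2. The dependence on stage was called for 0 genes by both tools (2 at an unadjusted p below 0.05; 0.0694% of all genes). Of the related lists, Colgalt1, which adds galactose to collagen, rose by 0.26 and Fbln5, an elastic-fibre protein, by 0.35. In the transforming growth factor beta pathway Ltbp1 rose (0.32) and Ski fell (-0.22). The integrin gene Itga1 (-0.28), the hepatocyte marker Apob (-0.51) and the mitochondrial transcript ND5 (-0.31) fell as well. The smooth muscle marker Myl9 rose by 0.52, and C1qb was the 1 macrophage marker that rose.

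The direct comparison of SKO with IKO non-tumour livers called 5 of the 35 genes. In neither direction was this a larger share than that of all genes. Fn1 fell in SKO livers (10.6% of all genes fell), with 1563, 1838 and 3576 normalised reads (lowest, median, highest) in SKO livers, against 2572, 3479.9 and 5307 in IKO livers (-0.86 ± 0.08, limma adjusted p = 1.06e-12). Mgp (0.90 ± 0.22, limma adjusted p = 0.00155), Lum (0.38), Col1a1 (0.65) and Col4a1 (0.31) were higher in SKO livers (11.5% of all genes). Single libraries took the count to between 2 and 6.

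**Figure D3:**
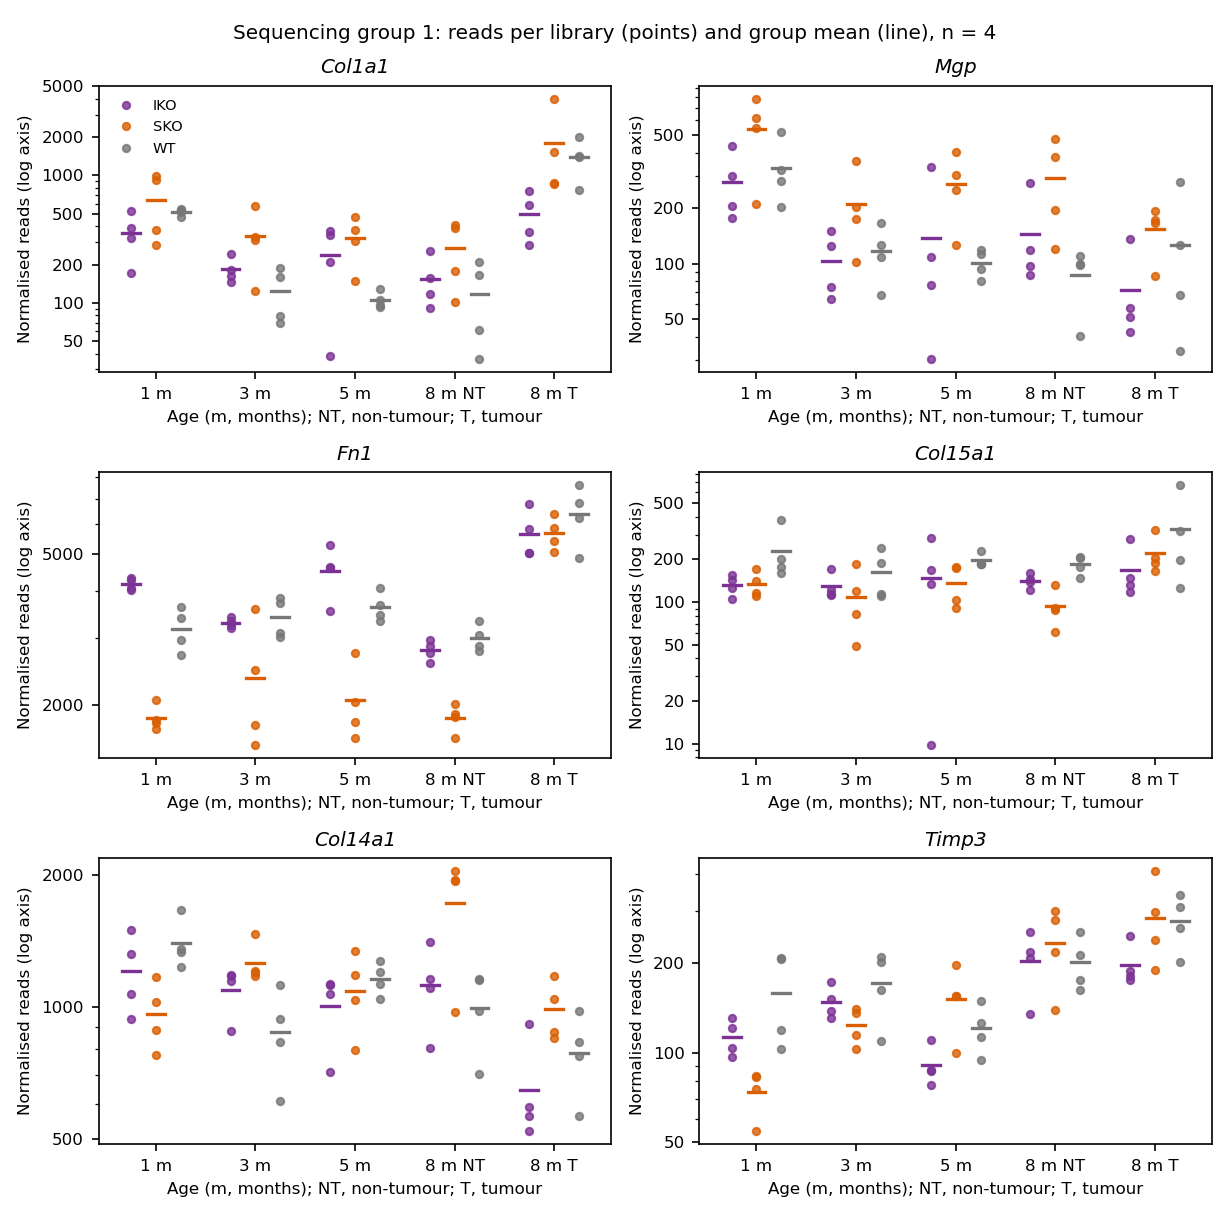
Normalised reads (log axis) of 6 genes in every library of the first sequencing group, by stage, with IKO, SKO and WT livers side by side. Fn1 in SKO livers at 1 month lies between 1720.0 and 2052, below all 4 WT livers, and Col1a1 is higher in every group of tumours (WT 767 to 2008) than in non-tumour tissue of the same genotype at 8 months (WT 36.2 to 208).

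Against the 8-month non-tumour tissue of the same genotype, tumours held more Col1a1 and collagen IV RNA in all 6 comparisons. Dcn and Lrat RNA were called lower in 5 of the 6. Col1a2, the second chain of collagen I, was called higher in 4 of the 6, with log2 differences of 0.50 to 2.04 over all 6. The number of the 35 genes that rose and fell was 7 and 3 in IKO tumours (18.2% and 15.1% of all genes), 18 and 3 in SKO tumours (21.0% and 18.7%), and 21 and 2 in WT tumours of the first sequencing group (22.9% and 19.2%). In the second, 7 rose and 2 fell in BKO tumours (8.39% and 6.32%), 18 rose in MKO tumours (9.76% of all genes rose) and 15 rose and 2 fell in WT tumours (15.0% and 12.0%). The share of the list that rose was larger than that of all genes except in IKO tumours, where it was about the same. The share that fell was smaller than that of all genes in IKO, SKO and both sets of WT tumours, and about the same in BKO tumours. With the 3 and 3 libraries of each comparison fitted alone, the counts of the second sequencing group were 0 in BKO, 0 in MKO and 9 in WT tumours.

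Col1a1, Col4a1, Col4a2, Col4a4 and Sparc rose in all 6 comparisons. Col1a1 had 767, 2008, 1411 and 1386 normalised reads in WT tumours of the first sequencing group, against 36.2, 208, 61.6 and 166 in WT non-tumour tissue (3.43 ± 0.47, limma adjusted p = 4.7e-08). The log2 difference of Col1a1 was 1.51 in IKO, 2.50 in SKO, 1.56 in BKO, 2.74 in MKO and 3.44 in the second set of WT tumours. Col4a1 had 3199.6, 1062 and 1652 in WT tumours of the second sequencing group, against 328, 419 and 198 in WT non-tumour tissue (2.46 ± 0.29, limma adjusted p = 1.26e-07), and 1976, 882, 1202 and 949 in WT tumours of the first, against 226, 368, 172 and 365 in WT non-tumour tissue. In these comparisons of Col1a1 and Col4a1 in WT tissue every tumour library exceeded every non-tumour library. Sparc rose by log2 differences of 0.71 (IKO) to 1.70 (WT, second group).

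Col3a1 and Acta2 rose in 5 of the 6 comparisons. Acta2 had 218, 392, 533 and 195 normalised reads in WT tumours of the first sequencing group, against 43.7, 40.2, 37.5 and 57.6 in WT non-tumour tissue (2.27 ± 0.47, limma adjusted p = 9.62e-05), and was not called in IKO tumours (1.04 ± 0.47, limma adjusted p = 0.0842). By role, fibrillar collagens rose for 2 of 5 genes in IKO, 5 in SKO, 5 in WT, 1 in BKO, 3 in MKO and 4 in the second set of WT tumours, and the 3 collagen IV genes rose in every set. Fn1 rose in IKO (1.01), SKO (1.61) and both sets of WT tumours (1.07 and 0.65) and was not called in BKO (0.55) or MKO tumours (0.51). In SKO tumours Fn1 had 5859.7, 5073, 5415 and 6409.9 normalised reads, against 2012, 1852, 1634 and 1893 in SKO non-tumour tissue.

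Dcn and Lrat fell in 5 of the 6 comparisons, MKO tumours being the exception for both. Dcn had 382, 260.3, 290.2 and 861 normalised reads in WT tumours of the first sequencing group, against 1096, 1392, 1247 and 991 in WT non-tumour tissue (-1.49 ± 0.23, limma adjusted p = 5.77e-07), and in the second 219, 745 and 310.2 in WT tumours, against 1484, 1595 and 1420.0 in WT non-tumour tissue. Lrat had 40.7, 75.3 and 67.3 in BKO tumours, against 164, 176 and 216 in BKO non-tumour tissue (-1.31 ± 0.27, limma adjusted p = 0.00115). None of these groups overlapped. Col14a1 and Pdgfra had negative differences in all 6 comparisons, with Col14a1 called in IKO and SKO tumours and Pdgfra in none. Col6a1, Lum, Mgp, Timp3, Pdgfra and Tgfb1 were called in no comparison of tumour with non-tumour tissue.

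Further stellate cell markers went both ways in tumours. Of 9 genes, 2 rose and 3 fell in IKO, 2 and 5 in SKO, 2 and 4 in WT, 0 and 4 in BKO, 1 and 1 in MKO and 2 and 6 in the second set of WT tumours. Cygb and Hgf in IKO tumours and Hand2 and Ngfr in SKO tumours were among those that fell. The median log2 difference of these markers was negative in all 6 comparisons, at -0.44 in IKO, -0.59 in SKO, -0.67 in WT, -0.65 in BKO, -0.21 in MKO and -0.89 in the second set of WT tumours. In WT tumours of the first sequencing group 12 of 22 collagen-processing genes rose and 1 fell (P4hb 1.39, P3h1 1.08, Serpinh1 1.49), as did 14 of 25 transforming growth factor beta genes with 1 falling (Tgfbr2 1.91, Tgfb2 1.67). Hepatocyte markers rose for 4 of 7 genes and fell for 1, mitochondrial transcripts fell for 6 of 6, cholangiocyte markers rose for 3 of 6 and smooth muscle markers for 2 of 7 in the same tumours. Sinusoidal endothelial markers rose for 4 of 9 and fell for 2, and macrophage markers rose for 1 of 10 and fell for 3. In the other 5 sets hepatocyte markers rose for 2 to 5 of 7 genes and macrophage markers rose for 0. Macrophage markers fell for 1 of 10 in IKO, 4 in SKO, 1 in BKO, 4 in MKO and 3 in the second set of WT tumours. Sinusoidal endothelial markers rose for 4 and fell for 0 of 9 in IKO, 1 and 2 in SKO, 0 and 1 in BKO, 1 and 3 in MKO and 1 and 1 in the second set of WT tumours. Mitochondrial transcripts fell for 4 of 6 in IKO, 6 in SKO, 0 in BKO, 2 in MKO and 3 in the second set of WT tumours. The part of cell make-up in the tumour differences was not tested.

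**Figure D4:**
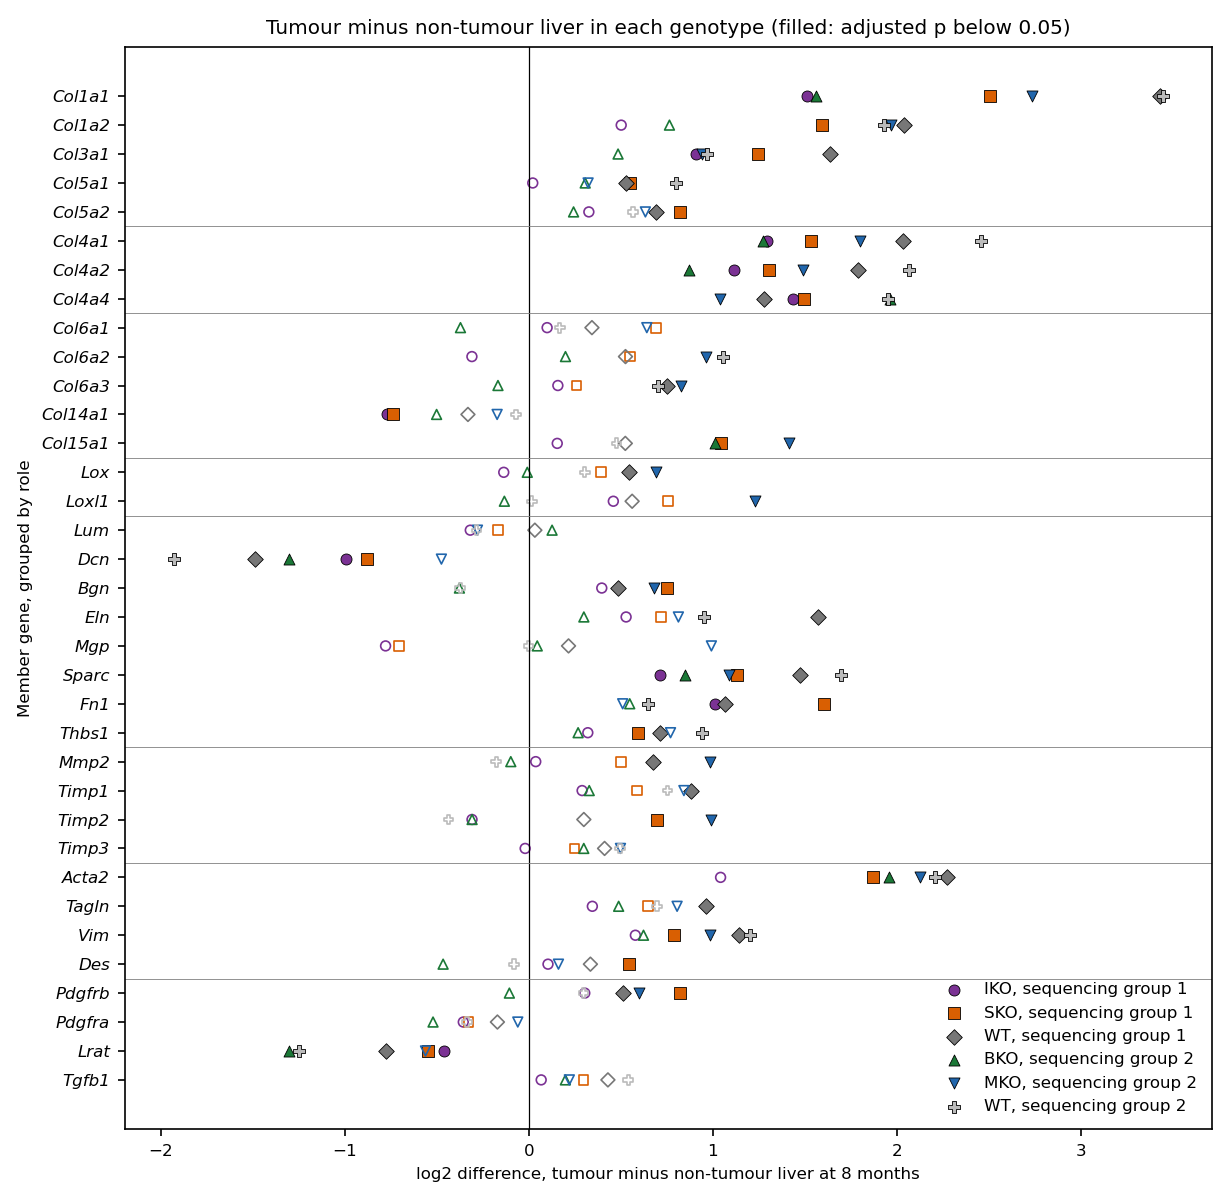
Log2 difference of tumour from 8-month non-tumour tissue for the 35 genes in the 6 sets of animals (IKO, SKO and WT of the first sequencing group; BKO, MKO and WT of the second); filled points have a limma adjusted p below 0.05. Col1a1 lies between 1.51 and 3.44 and is filled in all 6 sets, and Dcn and Lrat are negative in all 6.

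Tumours of the knockouts were also compared with WT tumours. BKO tumours had 7 of the 35 genes higher (0.386% of all genes), with a median of 0.29 for the list. Dcn had 773, 1119.7 and 1359 normalised reads in BKO tumours, against 219, 745 and 310.2 in WT tumours (1.44 ± 0.26, limma adjusted p = 0.00455), and Bgn had 933, 1134 and 977 in BKO tumours, against 441, 621 and 452 in WT tumours (0.98 ± 0.18, limma adjusted p = 0.00687). Mmp2 had 87.2, 115 and 66.8 in BKO tumours, against 21.8, 17.0 and 22.1 in WT tumours (1.38 ± 0.27, limma adjusted p = 0.0086). In all 3 genes the BKO tumours lay above the WT tumours. Timp2 (1.16), Col4a4 (1.51), Mgp (1.74) and Loxl1 (1.08) were called as well. The count was between 1 and 6 when a single library was left out: 1 without BKO tumour 2, 3 without WT tumour 1 or 3, and 4 without BKO tumour 3 or WT tumour 2.

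MKO tumours had 8 genes higher than WT tumours (2.99% of all genes) and a median of 0.58. Bgn had 1883, 1395 and 1099.6 normalised reads in MKO tumours, against 441, 621 and 452 in WT tumours (1.46 ± 0.18, limma adjusted p = 1.39e-05). Dcn had 1688, 1320.4 and 1628 in MKO tumours, against 219, 745 and 310.2 in WT tumours (1.97 ± 0.26, limma adjusted p = 2.48e-05). Mgp had 459.5, 643 and 181 in MKO tumours, against 41.1, 51.1 and 23.3 in WT tumours (2.71 ± 0.43, limma adjusted p = 0.000305). The MKO and WT tumours did not overlap in these 3 genes. Timp2 (1.53), Loxl1 (1.51), Mmp2 (1.40), Col14a1 (limma adjusted p = 0.00513) and Col6a1 (limma adjusted p = 0.032) were the other 5. Col14a1 had 1002, 1103 and 829 in MKO tumours, against 375, 519.8 and 538 in WT tumours. BKO and MKO tumours were set against the same 3 WT tumours, so their differences share those libraries. Fitted on the 6 tumours of each comparison alone, 0 genes were called for BKO and 0 for MKO. Macrophage markers were higher for 6 of 10 genes in MKO tumours (sums 5697 to 9750 in MKO and 2399 to 2754 in WT tumours). Stellate cell markers were higher in MKO tumours for 4 of 9 (Cygb 1.63, Hand2 1.12, Colec11 0.77). In BKO tumours 0 of 9 stellate cell markers rose and 1 fell (Reln -1.09, limma adjusted p = 0.0491), with a median of 0.39. Cholangiocyte markers rose for 2 of 6 in BKO (Krt7 1.29, Krt19 1.11) and for 2 of 6 in MKO tumours. The part of these cells was not tested.

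In the first sequencing group fewer of the genes were called. IKO tumours had 2 genes lower than WT tumours (1.13% of all genes), and the median was -0.43 with 3 of 35 differences positive. Lox had 0, 1.78, 0 and 0 normalised reads in IKO tumours, against 1.53, 13.0, 13.6 and 10.9 in WT tumours (-0.97 ± 0.21, limma adjusted p = 0.00392). Sparc had 1769.8, 2352, 2725 and 1654 in IKO tumours, against 3893, 2816, 3602 and 3291 in WT tumours, without overlap (-0.69 ± 0.18, limma adjusted p = 0.0195). Col1a1, with 357, 583, 762 and 287 in IKO tumours, against 767, 2008, 1411 and 1386 in WT tumours, did not overlap either but was not called (-1.45 ± 0.47, limma adjusted p = 0.0745). The count was 7 without IKO tumour 3, 5 without WT tumour 4, 1 without IKO tumour 1 or 4 or WT tumour 3, and 0 with the 2 groups fitted alone. In SKO tumours Dcn was the 1 gene called (0.679% of all genes higher), with 877, 565, 1015 and 560.2 in SKO tumours, against 382, 260.3, 290.2 and 861 in WT tumours (0.83 ± 0.23, limma adjusted p = 0.048). The groups overlapped through WT tumour 4, without which the count was 4, and the call was lost without SKO tumour 1 or 3 or WT tumour 1, 2 or 3. Macrophage markers were higher for 3 of 10 genes in SKO tumours (Vsig4 1.06, Timd4 0.80, Clec4f 1.04; median 0.73), with sums of 3979 to 5000.3 in SKO and 2244 to 3414 in WT tumours, and 1 cholangiocyte and 1 hepatocyte marker were lower. In IKO tumours 1 of 9 stellate cell markers was higher and 1 cholangiocyte and 1 hepatocyte marker were lower; the part of these cells was not tested.

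Whether the knockouts changed the difference between tumour and non-tumour tissue was tested as an interaction, which called 0 of the 35 genes for each knockout by limma and by limma-voom (10 genes in IKO, 1 in SKO, 6 in BKO and 5 in MKO at an unadjusted p below 0.05). All-gene shares were 0.123%, 0.0308%, 0.0308% and 0.131% in that order of knockouts. Bgn in MKO (1.05, limma adjusted p = 0.0886) and Dcn in MKO (1.45, limma adjusted p = 0.0922) had the smallest adjusted p. The greater tumour rise of Col1a1 in WT (3.43) than in IKO animals (1.51) is therefore not shown to be a difference between genotypes.

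In WT livers several matrix genes were lower at 8 months than at 1 month. All these mice were DEN-treated, and the 8-month tissue was non-tumour tissue from the stage with tumours. Age, time after DEN and nearness to a tumour cannot be told apart here. In 8-month non-tumour tissue 9 of the 35 genes were lower than at 1 month in the first sequencing group (3.02% of all genes lower) and 3 in the second (0.794%). Col1a1 had 36.2, 208, 61.6 and 166 normalised reads at 8 months, against 470.4, 538, 544 and 519 at 1 month in WT livers of the first group, without overlap (-2.12 ± 0.47, limma adjusted p = 0.00326). Sparc had 1147, 1415, 918 and 1373 at 8 months, against 2241, 3480.5, 2176 and 2247 at 1 month (-1.04 ± 0.18, limma adjusted p = 0.000177), and in the second group 1341, 1399 and 945 at 8 months, against 4111, 2360.3 and 2458 at 1 month (-1.23 ± 0.25, limma adjusted p = 0.00767). Eln (-1.65 and -1.42) and Col3a1 (-0.98 and -1.05) were lower in both groups, and Col1a2, Col4a2, Mgp, Col5a1 and Mmp2 in the first. The count in the first group was 5 without WT 8-month replicate 3. In the second, it was 0 without WT 1-month replicate 1, 1 without WT 8-month replicate 3 and 1 with limma-voom or with those 2 groups alone.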

How the data were processed

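Liver RNA was sequenced on a HiSeq2000 after MAPS library preparation, per the labels' protocols; this assay counts polyadenylated 3' ends. The submitters' processing notes name STAR 2.7.10a, HTSeq 2.0.2, DESeq2 1.32.0 and GRCm38/mm10. The deposited table holds log2-scale values made by the authors. Its label names another scale (rlog and CPM), but the values follow a variance-stabilising transform with a floor of 3.8289 at 0 reads. Undoing it gave whole reads within 0.05 for 100.0% of values up to 1000 reads, and these gave the normalised reads printed. Differences on the deposited scale understate changes of genes with few reads.

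Each sequencing group was fitted with limma 3.58.1 (R 4.3.3) on the deposited values, with 1 mean per group, a variance trend and Benjamini-Hochberg adjustment over 12966 genes, with calls made under 0.05. Non-tumour values are averages of the 4 stage differences. The fit was tested on simulated data. Python 3.11.15, numpy 2.4.6, pandas 2.3.3 and matplotlib 3.10.9 were used for the rest. Alternatives were a filter (mean of at least 5; 30 of the 35 genes kept in each sequencing group), quantile normalization, the compared groups alone, a replicate block, no trend, limma-voom on recovered reads, and each library left out. The labels call the libraries biological replicates without saying that each is a separate animal. Over 5460 pairs of libraries, chi-square per gene was at least 5.514. This check looks for duplicated libraries and cannot tell whether different libraries came from the same mouse. Each library was treated as its own sample, and its independence was not tested.

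All 35 genes are named by role; full values are given for up to 8 called genes with the smallest adjusted p, and up to 3 per related list. The genes, lists and comparisons were chosen with earlier results of these data known. Samples with the same replicate number deviated together (every correlation above 0.1) in 2 of 36 group pairs, BKO tumour with non-tumour tissue and MKO with WT at 8 months; the reported fit has no block. Vtn made 82.6% of the other-matrix sum, so list sums are given for cell type markers only. Protein sequences were not used here, and some genes of the related lists are not reported here by name.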

Additional observations from a re-analysis of the deposited data

Results flagged for a closer look

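In WT 8-month non-tumour tissue of the first sequencing group, the lowest Mgp library had 40.2 normalised reads, far below the other 3 (97.9 to 109.6). In SKO 8-month non-tumour tissue the lowest Col14a1 library had 973 normalised reads, against 1933 to 2041 in the other 3. The summed level of the 35 genes in WT livers at 5 months of the first sequencing group had its highest library at 9817, apart from the other 3. These 3 were among 66 groups of 4 libraries examined; chance alone gives about 1 in 20.

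The difference between SKO and WT livers varied with stage for Col14a1 (limma adjusted p = 0.0105) and Timp3 (limma adjusted p = 0.0284). Without the Col14a1 library at 973 or any other single library the count of such genes was 1 or 2.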

How the results depend on the processing

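Of 149 alternative settings for 26 counts, 14 moved a count by over 1.5 times; no called gene changed direction in 1117 refits of 187 gene calls, of which 1015 stayed called and 102 did not. Fitting the compared groups alone gave 0 for IKO, SKO, BKO and MKO tumours against WT and for BKO and MKO tumours against non-tumour tissue, 9 for WT tumours of the second sequencing group, 3 for MKO non-tumour livers and 1 for age in the second group. IKO tumours gave 1 with the filter and 5 after quantile normalization, SKO tumours 0 with no trend, MKO non-tumour livers 0 after quantile normalization, and age in the second group 1 with limma-voom. The causes of these moves were not tested, and a fit of groups alone also has fewer samples.

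Leaving out single libraries gave 0 to 1 genes for IKO, 8 to 10 for SKO, 26 to 28 for BKO and 0 to 3 for MKO non-tumour livers; 1 to 7, 0 to 4, 1 to 6 and 7 to 10 for the tumours of IKO, SKO, BKO and MKO; 9 to 11, 16 to 24, 19 to 22, 5 to 10, 9 to 26 and 11 to 18 for tumour against non-tumour tissue in IKO, SKO, WT, BKO, MKO and the second WT set; 2 to 6 for SKO against IKO, 12 to 21 for BKO against MKO, and 5 to 8 and 0 to 3 for age. MKO tumours against non-tumour tissue gave 9 without MKO non-tumour or tumour replicate 1, BKO tumours 5 without BKO non-tumour replicate 2 or 3, and WT tumours of the second group 11 without tumour replicate 1. SKO by stage gave 1 to 2, BKO and MKO by stage 0 to 1, MKO by tumour 0 to 2 (2 without MKO tumour 3 or WT tumour 2), and the other interactions 0. MKO non-tumour livers gave 0, 2 or 3 without any of 16 libraries.

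The replicate block gave 28 genes for BKO and 9 for SKO non-tumour livers, 6 for BKO tumours, 24 for SKO tumours against non-tumour tissue and 8 for BKO tumours against non-tumour tissue, and moved no other of these counts by over 1.5 times. With the block and the 2 groups alone, BKO tumour against non-tumour tissue gave 7, a setting added after seeing the data. Alternatives for single stages were added likewise: the block gave 2 for SKO at 5 months, quantile normalization 0 for BKO at 1 month and 3 for MKO at 8 months, groups alone 4 and 3 for BKO at 1 and 3 months, 0 for SKO at 3 months, and limma-voom 14 for BKO at 5 months. Depth limits Lox, Thbs1, Timp1 and Lum, whose median was at or below 6 reads.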

Other observations

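Of 35 other matrix proteins, 15 rose and 3 fell in WT tumours of the first sequencing group, and the 3 with the smallest adjusted p were Nid1, Hspg2 and Col4a3. Nid1, encoding nidogen, which links the laminin and collagen IV networks, rose by 3.52 on the log2 scale in these tumours (limma adjusted p = 1.14e-14) and by 3.16 in those of the second, and Hspg2, encoding perlecan, rose by 1.56 and Col4a3 by 1.72 in the first. The protease inhibitor gene Serpine2 fell by 2.05 in the same tumours. Ddr1, a collagen receptor kinase of epithelial cells, rose by 1.94.

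In single stages the sign of the difference from WT livers was positive at all 4 non-tumour stages for 16 of the 35 genes in MKO, 12 in SKO and 5 in IKO livers, against 10.4%, 14.1% and 10.7% of all genes; these values are a description without a test.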
